A study of Mus musculus with 64 samples.

Results

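Genes of the lysosome, its cathepsin proteases and the vacuolar proton pump (V-ATPase) were followed in murine bone marrow-derived macrophages (BMMs). The set held 44 genes named by function, with earlier results of these data already known, and all 44 were among the 14537 genes tested of 55487 in the count tables. It comprised 7 cysteine cathepsins, 3 aspartic and serine cathepsins, 10 glycosidases and other hydrolases, 7 membrane, sterol export and activator proteins, the 3 transcription factors Tfeb, Tfe3 and Mitf, and 14 V-ATPase genes. Sequencing reads per gene were counted in 64 libraries, which fell into 16 groups of 4. BMMs came from female wild-type (Ahr+/+, C57BL/6JRj) and aryl hydrocarbon receptor (AhR) knockout (Ahr-/-) mice aged 8 to 12 weeks. The knockout strain had been backcrossed in-house to the wild-type strain. Marrow cells were grown in supernatant of L929 fibroblasts, and cultures were used when over 80% of the cells carried CD11b and F4/80. BMMs were exposed for 6 h to 1 µM benzo(a)pyrene (BaP), 10 µM indole-3-carbinol (I3C) or the solvent DMSO (0.01%), and were then activated for 3 h or 20 h with killed bacteria, heat-treated Salmonella Enteritidis (hk S.E.), at 10000000 per ml. Unactivated BMMs were sequenced after DMSO only, at both times and in both genotypes.

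Lysosomes are acidic organelles in which macrophages degrade what they ingest. Their lumen is acidified by the V-ATPase, whose membrane-bound V0 part conducts protons while the cytosolic V1 part hydrolyses ATP. Cathepsins cut the ingested and internalised proteins, and cysteine cathepsins such as cathepsin S also process antigens and the invariant chain of MHC class II. Many lysosomal genes carry an E-box in their promoters that is bound by TFEB and its relatives of the MiT/TFE family, which respond to nutrient supply and to microbial products.

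Levels are given as CPM, which are read counts per 1000000 reads scaled by edgeR's TMM factors, changes as log2 fold change ± SE from edgeR's quasi-likelihood test on all 64 libraries, and a gene was called differentially expressed (DEG) at a Benjamini-Hochberg adjusted p below 0.01 over all genes tested. Total counts lay between 12152496 and 50644601 per library except for 1 library of 233047331 (unactivated Ahr+/+ BMMs, 20 h, number 4), and the smallest count of any of the 44 genes in any library was 2. Marrow came from 4 mice of each genotype, so the groups of a genotype can share mice. The labels do not say which mouse a library came from, and the main test holds no term for the mouse. Its p-values therefore measure the spread between libraries. Ctsd, Ctsl, Ctss, Glb1, Atp6v0a1 and Atp6v1e1 overlap another annotated gene on their own strand, where counting can leave shared reads out, so their levels are uncertain to that extent. In bulk RNA, fewer cells of a kind and less RNA per cell cannot be told apart. Reads on the whole Ahr gene were more numerous in Ahr-/- than in Ahr+/+ BMMs, by 0.88 to 1.04 on the log2 scale in the 4 comparisons, and since the deleted part of the allele was not resolved, this level does not check the genotype. Ahrr, the AhR repressor and a classical AhR target, was higher with BaP in activated Ahr+/+ BMMs at 3 h (log2 fold change 3.36) and was not called in Ahr-/- BMMs (-0.33).

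The libraries stood apart in 2 ways that touch the comparisons below. In Ahr-/- BMMs, libraries numbered 1 and 2 lay together on the same side of libraries 3 and 4 in at least 7 of 8 groups for 22.7% of gene symbols, against 0.970% in Ahr+/+ BMMs. This held for 15 of the 44 genes, among them Tfeb, Mitf, Lipa, Ctsd, Ctsh and Lamp2, and in Ahr+/+ BMMs for Atp6v1e1 alone. Library identifiers in the labels formed 4 series, which the labels do not explain. All Ahr-/- libraries at 20 h belonged to 1 series and all activated Ahr+/+ libraries at 20 h to another, so that genotype and series cannot be told apart among activated BMMs at 20 h. Time and series cannot be told apart in activated Ahr-/- BMMs either, while 1 of the 4 unactivated Ahr-/- libraries at 3 h belonged to the series of the 20 h libraries. Markers of macrophages were present throughout, with Lyz2 reaching 26566 CPM and Mertk never below 5.23 CPM. Defining markers of T and NK cells, mast cells and erythroid cells stayed below 1 CPM in every library. Of the neutrophil markers, Ly6g, Mpo and Elane stayed below 0.5 CPM, whereas S100a8, S100a9, Ltf, Camp and Ngp rose with hk S.E. at 3 h, the list summing to between 15.7 and 43.9 CPM in unactivated and between 111 and 261 CPM in activated Ahr+/+ BMMs. The 6 fibroblast markers also summed to more with hk S.E., and to more in activated Ahr-/- than in activated Ahr+/+ BMMs. At 3 h they summed to between 0.602 and 0.828 CPM in unactivated and between 7.18 and 12.4 CPM in activated Ahr+/+ BMMs, and to between 0.564 and 3.41 and between 13.7 and 21.8 CPM in Ahr-/- BMMs. At 20 h the activated sums were 3.87 to 5.81 CPM in Ahr+/+ and 7.69 to 9.90 CPM in Ahr-/- BMMs. These sums do not show a rise of the whole list. In the DMSO-treated groups activated for 3 h, 5 of the 6 fibroblast markers had a mean below 1 CPM in either genotype. Pdgfrb reached 28.8 CPM in any library and the next highest, Col1a2, 4.28 CPM. The part of either list in the changes described below was not tested.

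Lysosomal genes of unactivated Ahr+/+ BMMs differed widely in level. Scaled to the merged length of all annotated exons, the saposin precursor Psap led at 4084 CPM per kb, followed by the aspartic protease Ctsd at 3273, the cysteine proteases Ctss at 2509 and Ctsb at 2339, and the membrane glycoprotein Lamp1 at 744 CPM per kb. The order by reads differs from this order. At the low end of the same scale stood Mitf with 10.1, Tfeb with 5.93, Ctsk with 5.68 and Ctse with 0.548 CPM per kb. Together the 44 genes summed to 54318 ± 2732 CPM (SD, n = 4) in unactivated and 58971 ± 2703 CPM in activated Ahr+/+ BMMs at 3 h. At 20 h the sums were 50723 ± 1320 and 41427 ± 2783 CPM in Ahr+/+ BMMs, and 49208 ± 3050 and 31458 ± 601 CPM in Ahr-/- BMMs. The 8 macrophage markers summed to a median of 26790 CPM in unactivated and 21217 CPM in activated Ahr+/+ BMMs at 20 h, and to 28696 and 24179 CPM in Ahr-/- BMMs, whereas at 3 h they went from 26093 to 32234 CPM in Ahr+/+ BMMs. Their part in the sums of the 44 genes was not tested.

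The first comparison asked how activation with hk S.E. changed these genes in DMSO-treated BMMs. At 3 h, 13 genes rose and 8 fell in Ahr+/+ BMMs, where 24.2% of all genes tested rose and 32.3% fell. Ahr-/- BMMs had 11 genes that rose and 11 that fell (25.5% and 31.8% of all genes). At 20 h, 13 rose and 17 fell in Ahr+/+ BMMs (29.9% and 28.7% of all genes), and 11 rose and 20 fell in Ahr-/- BMMs (28.3% and 26.0%). The median size of the log2 fold change was smaller for the 44 genes than for all genes at 3 h in Ahr+/+ BMMs (0.23 against 0.69) and lay closer to it at 20 h (0.44 against 0.65), and in Ahr-/- BMMs at 20 h both were alike (0.56 against 0.57). All 11 genes that rose at 3 h in Ahr-/- BMMs were among the 13 of Ahr+/+ BMMs, and all 8 that fell in Ahr+/+ BMMs were among the 11 of Ahr-/- BMMs. At 20 h 10 genes rose in both genotypes, which was 76.9% of those in Ahr+/+ and 90.9% of those in Ahr-/- BMMs, and the 17 that fell in Ahr+/+ BMMs also fell in Ahr-/- BMMs. None was called in opposite directions between genotypes at either time. Over all genes tested, the change with activation differed between genotypes for 0.0138% at 3 h. The overlap of calls over all genes is not given, so this overlap is not read as particular to the 44.

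**Figure D1:**
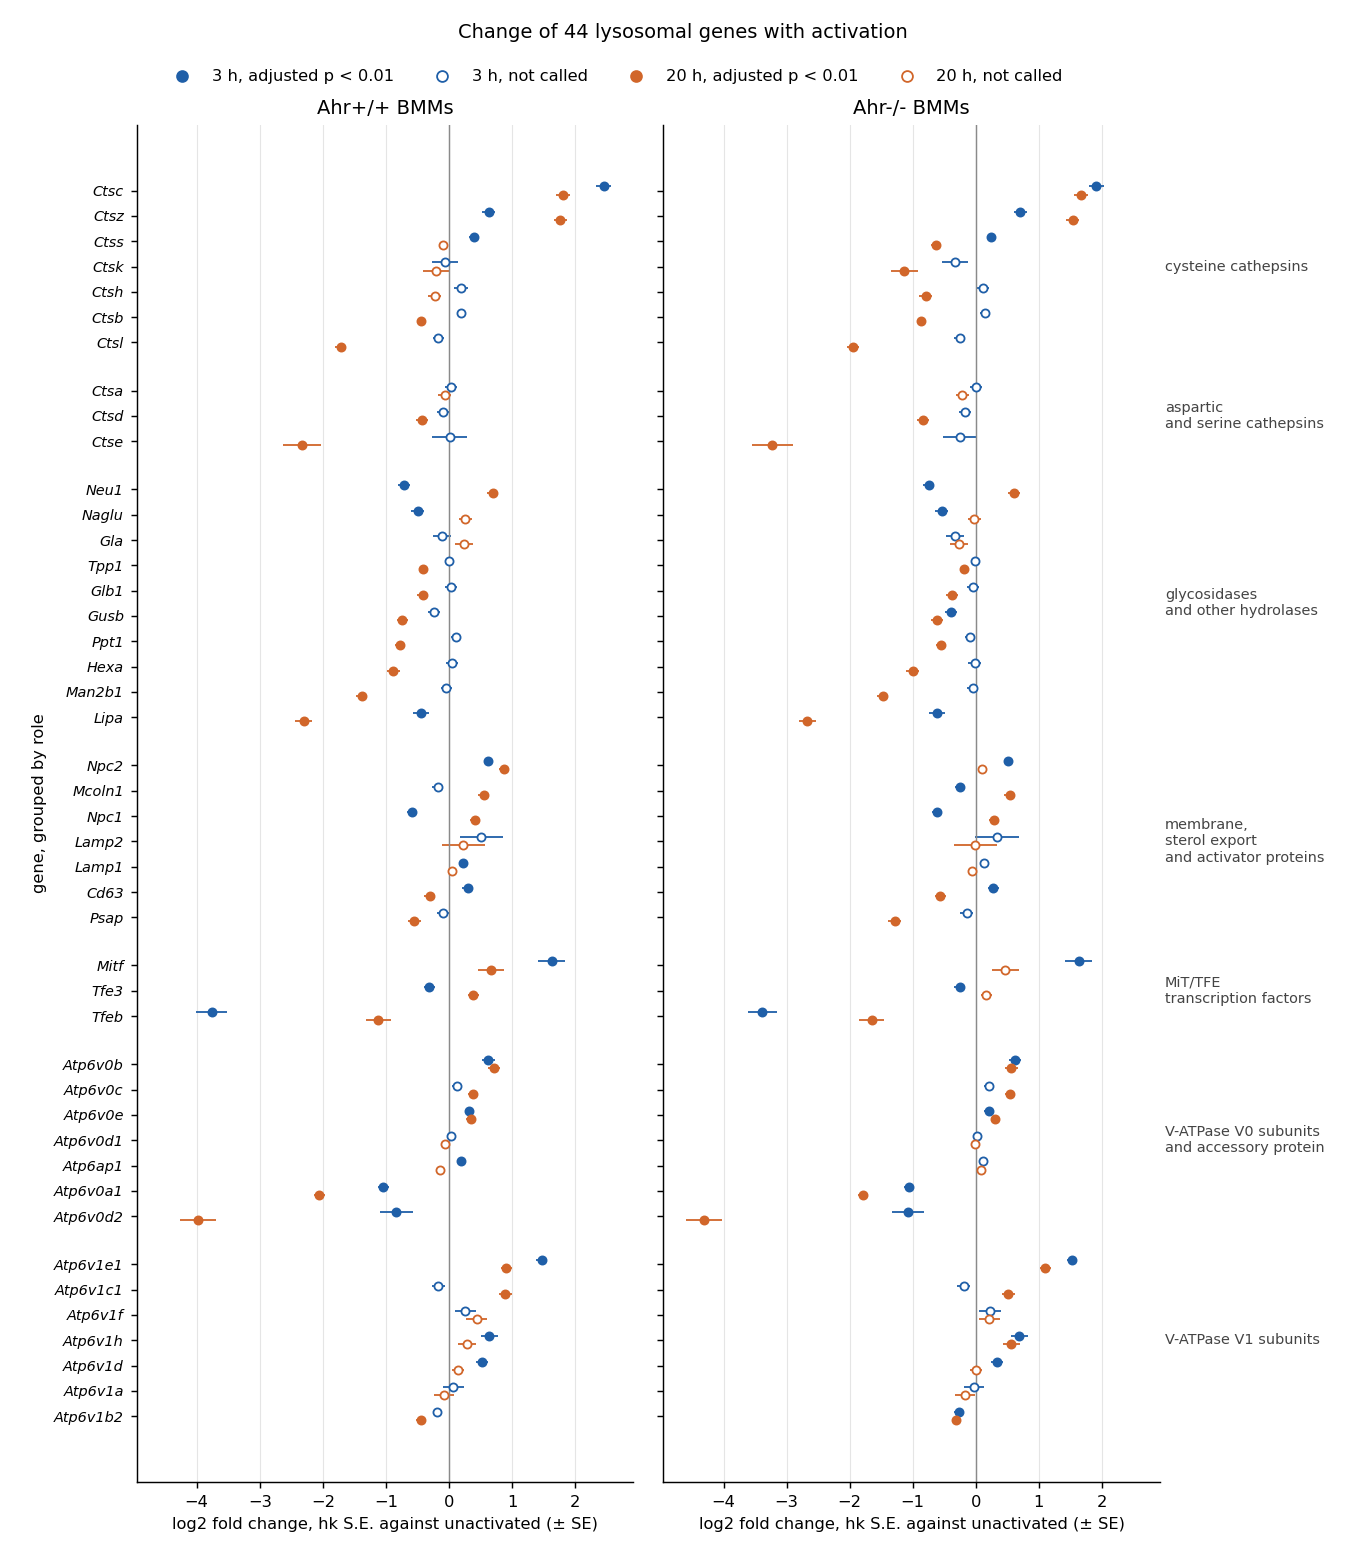
Log2 fold change (x axis, ± SE) of each of the 44 genes with hk S.E. against unactivated BMMs, DMSO-treated, in Ahr+/+ (left) and Ahr-/- (right) BMMs; blue is 3 h, orange is 20 h, and filled points are DEGs at adjusted p below 0.01 (edgeR). Tfeb lies at -3.76 at 3 h and Atp6v0d2 at -3.97 at 20 h in Ahr+/+ BMMs, while Ctsc is on the right at both times.

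Among the transcription factors, Tfeb transcript fell with activation and Mitf transcript rose, while Tfe3 moved little. Tfeb (chr17:47737030-47792419, plus strand, in the mm10 build), a master regulator of lysosome formation, stood at 29.6, 29.3, 39.5 and 36.1 CPM in the 4 unactivated Ahr+/+ libraries at 3 h and at 2.18, 1.24, 3.81 and 2.78 CPM after hk S.E. No activated library came near an unactivated one, and the log2 fold change was -3.76 ± 0.24 (adjusted p = 5.55e-20, edgeR), which was 13.6-fold lower. The Ahr-/- libraries went from 26.6, 54.6, 32.7 and 37.7 to 3.80, 5.17, 2.60 and 2.88 CPM (log2 fold change -3.38 ± 0.23). By 20 h Tfeb had partly returned, with 20.7, 16.4, 17.8 and 19.1 CPM in activated against 41.1, 42.3, 36.1 and 41.5 CPM in unactivated Ahr+/+ BMMs (-1.12 ± 0.20). Activated Ahr-/- BMMs at 20 h held 12.6, 15.6, 11.0 and 11.6 CPM and the unactivated libraries 41.5, 47.9, 34.0 and 36.7 CPM (-1.65 ± 0.20). The groups did not overlap in any of these 4 comparisons.

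Mitf, which directs lysosomal genes in osteoclasts and pigment cells, rose at 3 h from 55.6, 71.0, 58.4 and 66.2 to 186, 195, 199 and 196 CPM in Ahr+/+ BMMs (log2 fold change 1.63 ± 0.21, edgeR adjusted p = 2.07e-09). The change in Ahr-/- BMMs was 1.63 as well, from 53.9 to 81.1 CPM up to 169 to 246 CPM, libraries 1 and 2 being the lower ones after activation. At 20 h it was smaller, 0.67 in Ahr+/+ BMMs (adjusted p = 0.00435), where leaving out activated library 1 or unactivated library 4 gave adjusted p between 0.0141 and 0.0161. For Ahr-/- BMMs at 20 h Mitf did not pass (0.47, adjusted p = 0.0472), and the activated libraries there held 53.0, 55.5, 110 and 103 CPM. Tfe3 had the smallest change of the 3 in each of the 4 comparisons. Its level went from 118, 121, 139 and 125 to 102, 99.4, 109 and 94.8 CPM at 3 h in Ahr+/+ BMMs (-0.31 ± 0.09) and from 122, 130, 129 and 136 to 159, 173, 179 and 164 CPM at 20 h (0.39 ± 0.08), so the direction differed between the times. Its call at 3 h in Ahr+/+ BMMs was lost without activated library 1, 2 or 4 or unactivated library 3 (edgeR adjusted p 0.0101 to 0.0237). Tfe3 changed in Ahr-/- BMMs by -0.25 at 3 h, a call lost without any of 7 of the 8 libraries (adjusted p 0.0129 to 0.0972), and by 0.17 at 20 h, which was not called.

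The E-box read by these factors was looked for in the 250 bases before the RefSeq gene start (assembly GRCm38.p6), where entries were found for 36 of the 44 genes. The extended letters TCACGTGA, searched on both strands and containing the shorter CACGTG, occurred in 5 of 45 promoters of these genes (11.1%), those of Atp6v1a, Ctsa, Ctsd, Gla and Mcoln1, against 0.785% of 32851 promoters of all genes. CACGTG occurred in 22.2% against 6.02%, and GCGTG, the core letters bound by AhR, in 44.4% against 28.2%. The 3 sequences that follow are shown because they carry TCACGTGA, and the next 2 because they belong to the genes with large changes of either sign that hold neither E-box. They read 5′ to 3′ on the strand of the gene, and capitals mark CACGTG and, where it is present, TCACGTGA. Ctsd (cathepsin D) is at chr7:142387828-142388077 on the minus strand, Mcoln1 (a lysosomal calcium channel) at chr8:3500269-3500518 on the plus strand, Gla (alpha-galactosidase A) at chrX:134601006-134601255 on the minus strand, Lipa (lysosomal acid lipase) at chr19:34527475-34527724 on the minus strand and Ctsc (cathepsin C) at chr7:88277835-88278084 on the plus strand.
Ctsd: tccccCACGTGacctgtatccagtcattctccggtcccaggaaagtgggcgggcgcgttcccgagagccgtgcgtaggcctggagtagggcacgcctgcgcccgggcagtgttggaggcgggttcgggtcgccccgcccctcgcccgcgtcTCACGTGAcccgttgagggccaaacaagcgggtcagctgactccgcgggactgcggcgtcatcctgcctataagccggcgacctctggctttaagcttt
Mcoln1: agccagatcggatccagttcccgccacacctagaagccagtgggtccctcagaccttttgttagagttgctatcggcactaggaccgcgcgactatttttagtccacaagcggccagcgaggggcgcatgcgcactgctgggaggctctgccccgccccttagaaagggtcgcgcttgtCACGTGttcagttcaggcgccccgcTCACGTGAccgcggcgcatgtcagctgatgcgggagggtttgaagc
Gla: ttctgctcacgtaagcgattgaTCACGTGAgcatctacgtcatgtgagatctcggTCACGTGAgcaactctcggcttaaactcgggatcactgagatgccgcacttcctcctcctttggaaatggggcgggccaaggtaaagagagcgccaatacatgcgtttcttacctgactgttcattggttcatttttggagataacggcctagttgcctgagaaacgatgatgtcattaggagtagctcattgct
Lipa: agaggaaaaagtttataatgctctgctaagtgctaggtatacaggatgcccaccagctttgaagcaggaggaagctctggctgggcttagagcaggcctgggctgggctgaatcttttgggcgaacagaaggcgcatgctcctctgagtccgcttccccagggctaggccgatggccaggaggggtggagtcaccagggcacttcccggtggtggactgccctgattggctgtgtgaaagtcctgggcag
Ctsc: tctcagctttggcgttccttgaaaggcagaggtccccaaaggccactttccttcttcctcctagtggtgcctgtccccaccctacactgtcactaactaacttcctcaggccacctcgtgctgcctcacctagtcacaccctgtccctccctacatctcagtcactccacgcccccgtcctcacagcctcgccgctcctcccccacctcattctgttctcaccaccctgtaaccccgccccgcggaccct
Of the 5 genes with TCACGTGA, none was called with activation at 3 h in Ahr+/+ BMMs (median log2 fold change -0.10, edgeR), and at 20 h Mcoln1 rose (0.55) and Ctsd fell (-0.43). Of the 10 genes with CACGTG, which include these 5, 2 rose and 1 fell at 3 h (median -0.03) and 2 rose and 3 fell at 20 h (median -0.01). Of the 26 shown here to hold neither form, 10 rose and 5 fell at 3 h (median 0.12) and 9 rose and 10 fell at 20 h (median -0.08). Lipa (-2.31 at 20 h) and Ctsc (1.80) are 2 of these 26 and were printed for the size of their changes. Of all genes tested in Ahr+/+ BMMs, 24.2% rose and 32.3% fell at 3 h, and 29.9% rose and 28.7% fell at 20 h. At an unadjusted p below 0.05 the count over all 44 genes at 3 h was 25, and DESeq2 and limma called 22 each. At that unadjusted p, 9729 of all 14537 genes tested passed at 3 h in Ahr+/+ BMMs (edgeR).

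Cysteine cathepsins split by time. At 3 h Ctsc, Ctsz and Ctss rose in both genotypes and none of the 7 fell, whereas at 20 h Ctsc and Ctsz stayed high and 2 in Ahr+/+ and 5 in Ahr-/- BMMs fell. Of all genes tested, 24.2% rose and 32.3% fell at 3 h in Ahr+/+ BMMs, and 25.5% and 31.8% in Ahr-/- BMMs. At 20 h 29.9% rose and 28.7% fell in Ahr+/+ BMMs, and 28.3% and 26.0% in Ahr-/- BMMs. Ctsc, the dipeptidyl peptidase that activates granule serine proteases, went from 301, 353, 303 and 307 to 1578, 2083, 1554 and 1683 CPM at 3 h in Ahr+/+ BMMs (log2 fold change 2.45 ± 0.12, edgeR adjusted p = 9.63e-26). It remained raised at 20 h, at 896, 1181, 918 and 967 against 268, 298, 297 and 273 CPM (1.80 ± 0.11). Changes in Ahr-/- BMMs were 1.91 at 3 h and 1.67 at 20 h. Ctsz, a carboxypeptidase, rose more at 20 h than at 3 h, with 2467, 2177, 2378 and 2906 against 694, 715, 712 and 801 CPM in Ahr+/+ BMMs (1.76 ± 0.11 at 20 h and 0.63 at 3 h). The difference between its changes at the 2 times was itself called (1.13).

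Ctss, the cathepsin that trims the invariant chain, rose at 3 h from 3416, 3450, 3031 and 3729 to 4433, 4608, 4166 and 4636 CPM in Ahr+/+ BMMs (log2 fold change 0.39 ± 0.07). At 20 h its groups overlapped in Ahr+/+ BMMs (-0.10), and in Ahr-/- BMMs it fell from 4085, 4488, 3839 and 4121 to 2789, 2280, 2878 and 2670 CPM (-0.64 ± 0.07). Its paralog Ctsk, a collagenase known from osteoclasts, was rare, with 5.68, 4.52, 5.93 and 6.48 CPM in unactivated and 4.85, 4.71, 4.02 and 5.99 CPM in activated Ahr+/+ BMMs at 20 h, which overlapped. It fell in Ahr-/- BMMs at 20 h from 7.11, 6.31, 3.62 and 3.84 to 2.50, 1.99, 2.36 and 2.47 CPM (-1.14 ± 0.21), the unactivated libraries 1 and 2 being the higher ones. The difference between genotypes in the change of Ctsk was not called (-0.93).

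Ctsl, an endoprotease of broad specificity, was hardly altered at 3 h (1875, 2250, 2161 and 2131 against 1712, 2029, 1855 and 1879 CPM in Ahr+/+ BMMs) but fell strongly by 20 h. There it stood at 2056, 2230, 2649 and 2162 CPM in unactivated and 656, 636, 735 and 733 CPM in activated Ahr+/+ BMMs (log2 fold change -1.72 ± 0.09, edgeR adjusted p = 8.45e-24). The Ahr-/- change was -1.94 ± 0.09. Ctsb, the most abundant cysteine cathepsin by reads, fell less at 20 h, from 14403, 14064, 14082 and 14795 to 10986, 10129, 9545 and 11588 CPM in Ahr+/+ BMMs (-0.44 ± 0.07), and from 14156, 13653, 12844 and 13011 to 7014, 6673, 7684 and 8094 CPM in Ahr-/- BMMs (-0.87 ± 0.07). Ctsh, an aminopeptidase, fell past the threshold in Ahr-/- BMMs (-0.80) and not in Ahr+/+ BMMs (-0.23, adjusted p = 0.0499).

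The aspartic cathepsins fell late. None of Ctsa, Ctsd and Ctse was called at 3 h in either genotype, with log2 fold changes between -0.25 and 0.03. Ctsd, the main aspartic protease of lysosomes, lay between 6705 and 7548 CPM in unactivated and at 5157, 4708, 4979 and 5782 CPM in activated Ahr+/+ BMMs at 20 h (-0.43 ± 0.09). Activated Ahr-/- libraries held 4225, 4134, 3274 and 3300 CPM (-0.84 ± 0.09). Ctse was near the limit of detection and went from 2.41, 2.07, 1.28 and 1.30 to 0.314, 0.523, 0.251 and 0.298 CPM in Ahr+/+ BMMs at 20 h (-2.34 ± 0.30, edgeR adjusted p = 1.03e-09). In activated Ahr-/- BMMs it rested on 2 to 16 reads per library (0.0633, 0.112, 0.221 and 0.294 CPM, -3.23 ± 0.32). The serine carboxypeptidase Ctsa, which protects other lysosomal enzymes, was not called in any of the 4 comparisons.

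Most glycosidases and other hydrolases fell by 20 h. At 3 h 3 of the 10 fell in Ahr+/+ BMMs and 4 did in Ahr-/- BMMs, near the 32.3% and 31.8% of all genes that fell. At 20 h each genotype had 7 that fell and 1 that rose. Of all genes tested, 28.7% fell and 29.9% rose at 20 h in Ahr+/+ BMMs, and 26.0% and 28.3% in Ahr-/- BMMs. Lipa, which frees cholesterol and fatty acids from ingested lipids, fell first slightly and then strongly, from 1637, 1587, 1479 and 1600 to 1139, 1182, 1157 and 1163 CPM at 3 h (-0.44 ± 0.13) and from 1450, 1497, 1460 and 1311 to 298, 288, 307 and 262 CPM at 20 h (-2.31 ± 0.13) in Ahr+/+ BMMs. The 3 h call was lost without any one of the 4 activated libraries (edgeR adjusted p 0.0144 to 0.0209), whereas the 20 h value had an adjusted p of 2.59e-22. Ahr-/- BMMs showed the same at 20 h, where Lipa went from 1439, 1341, 1579 and 1557 to 196, 199, 257 and 275 CPM (-2.67 ± 0.13). Man2b1, a lysosomal alpha-mannosidase, was not called at 3 h (-0.05 in both genotypes) and fell by 1.39 and 1.48 at 20 h. Hexa, a beta-hexosaminidase subunit, fell by 0.88 and 1.00 and the thioesterase Ppt1 by 0.77 and 0.56 at 20 h in Ahr+/+ and Ahr-/- BMMs. Gusb (beta-glucuronidase), Glb1 (beta-galactosidase) and Tpp1 (a tripeptidyl peptidase) also fell at 20 h in both, by 0.19 to 0.74.

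Neu1, the lysosomal sialidase, went the other way with time. It fell from between 110 and 131 to between 67.2 and 76.5 CPM at 3 h (log2 fold change -0.72 ± 0.09) and rose from between 106 and 122 to between 160 and 204 CPM at 20 h (0.69 ± 0.09) in Ahr+/+ BMMs, with -0.75 and 0.60 in Ahr-/- BMMs. Naglu fell at 3 h (-0.50 and -0.54) and was not called at 20 h (0.26 and -0.03). Gla was not called in any of the 4 comparisons, with values between -0.32 and 0.23.

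Among membrane, sterol and activator proteins, the sterol exporters diverged. Npc2, the soluble cholesterol carrier, rose at 3 h in both genotypes and passed the threshold at 20 h in Ahr+/+ BMMs but not in Ahr-/- BMMs (0.10). Its levels in Ahr+/+ BMMs were 1066, 1081, 1116 and 1178 CPM unactivated and 1671, 1820, 1579 and 1776 CPM activated at 3 h (log2 fold change 0.62 ± 0.07), and 945, 996, 943 and 1077 against 1793, 1758, 1652 and 2015 CPM at 20 h (0.87 ± 0.07). Its membrane partner Npc1 fell at 3 h, from 359, 313, 339 and 345 CPM to between 217 and 231 CPM (-0.58 ± 0.08), and rose at 20 h (0.42). The tetraspanin Cd63 rose at 3 h (0.30 in Ahr+/+ BMMs, lost without unactivated library 2 at adjusted p = 0.0272) and fell at 20 h (-0.31, lost without activated library 2 or 3, adjusted p 0.0123 to 0.0144, edgeR). Mcoln1 rose at 20 h (0.55 in Ahr+/+ and 0.54 in Ahr-/- BMMs). Psap, the precursor of the saposins that present lipids to hydrolases, fell at 20 h from 9384, 9645, 8750 and 9790 to 7032, 6332, 5605 and 6636 CPM in Ahr+/+ BMMs (-0.55 ± 0.10) and from 9099, 10334, 7826 and 7896 to 3528, 3345, 3890 and 3617 CPM in Ahr-/- BMMs (-1.29 ± 0.10).

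Lamp1, an abundant glycoprotein of the lysosomal membrane, rose at 3 h in Ahr+/+ BMMs (0.23) and was called in no other comparison of activated with unactivated BMMs. Lamp2 was not called in any comparison, and in Ahr-/- BMMs its libraries fell into the pairs described above, with 279 and 235 CPM in libraries 1 and 2 and 593 and 584 CPM in libraries 3 and 4 of the unactivated group at 20 h. That spread gave an SE of 0.34, against 0.06 for Lamp1.

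The V0 sector of the proton pump showed opposite changes between subunits. Atp6v0a1 and Atp6v0d2 fell at both times in both genotypes, Atp6v0b and Atp6v0e rose in all 4 comparisons, and Atp6v0d1 was called in none. The call of Atp6v0e at 3 h in Ahr-/- BMMs was lost without unactivated library 1, 2 or 3 (edgeR adjusted p 0.0102 to 0.0480). Atp6v0d2 (chr4:19876841-19922605, minus strand), the d subunit form that osteoclasts and some macrophages use, dropped from 29.0, 31.4, 20.7 and 32.3 to 17.3, 14.1, 13.4 and 18.9 CPM at 3 h in Ahr+/+ BMMs (log2 fold change -0.83 ± 0.26, edgeR adjusted p = 0.00387). This call was lost without activated library 1, 2 or 3 or unactivated library 2 or 4 (adjusted p 0.0111 to 0.0274). At 20 h it stood at 65.6, 70.4, 73.9 and 69.3 CPM in unactivated and 5.80, 3.74, 2.99 and 5.26 CPM in activated Ahr+/+ BMMs (-3.97 ± 0.28, adjusted p = 2.21e-18), 15.7-fold lower. In Ahr-/- BMMs at 20 h the values were 89.3, 69.6, 85.6 and 74.1 against 4.91, 2.21, 4.42 and 4.40 CPM (-4.31 ± 0.29). Its paralog Atp6v0d1, the form found in all tissues, held 167, 169, 168 and 178 CPM before and 170, 153, 161 and 172 CPM after activation at 20 h in Ahr+/+ BMMs (-0.06 ± 0.06), so the groups overlapped while those of Atp6v0d2 lay more than 10-fold apart.

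Atp6v0a1, a proton channel subunit, went from 317, 299, 293 and 374 to 164, 148, 147 and 165 CPM at 3 h (-1.04 ± 0.08) and from 320, 302, 313 and 321 to 80.0, 68.8, 81.7 and 71.9 CPM at 20 h (-2.05 ± 0.08, edgeR adjusted p = 6.72e-29) in Ahr+/+ BMMs. Other genes for the same subunit, outside the 44, rose, Tcirg1 (a3) by 0.99 and 0.98 and Atp6v0a2 by 0.22 and 0.81 at 3 h and 20 h. Tcirg1 lay between 353 and 418 CPM in unactivated and between 736 and 803 CPM in activated Ahr+/+ BMMs at 3 h. Markers of osteoclasts, which use Tcirg1 and Atp6v0d2, were not alike. Calcr and Oscar stayed below 1 CPM in every library, whereas Nfatc1 lay between 23.0 and 70.6 CPM. Mmp9 reached 25.6, Itgb3 9.37 and Ocstamp 2.61 CPM. The 6 markers summed to between 66.6 and 75.2 CPM in unactivated and between 31.0 and 42.0 CPM in activated Ahr+/+ BMMs at 3 h. Their part in these changes was not tested. Atp6v0b rose by 0.56 to 0.71, Atp6v0e by 0.20 to 0.35 and Atp6v0c, the proton-binding ring subunit, by 0.38 and 0.53 at 20 h, although reads of Atp6v0c could be shared with its pseudogenes. The accessory protein Atp6ap1 rose slightly at 3 h in Ahr+/+ BMMs (0.19), a call lost without unactivated library 2 or 3 (adjusted p 0.0134 to 0.0247).

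**Figure D2:**
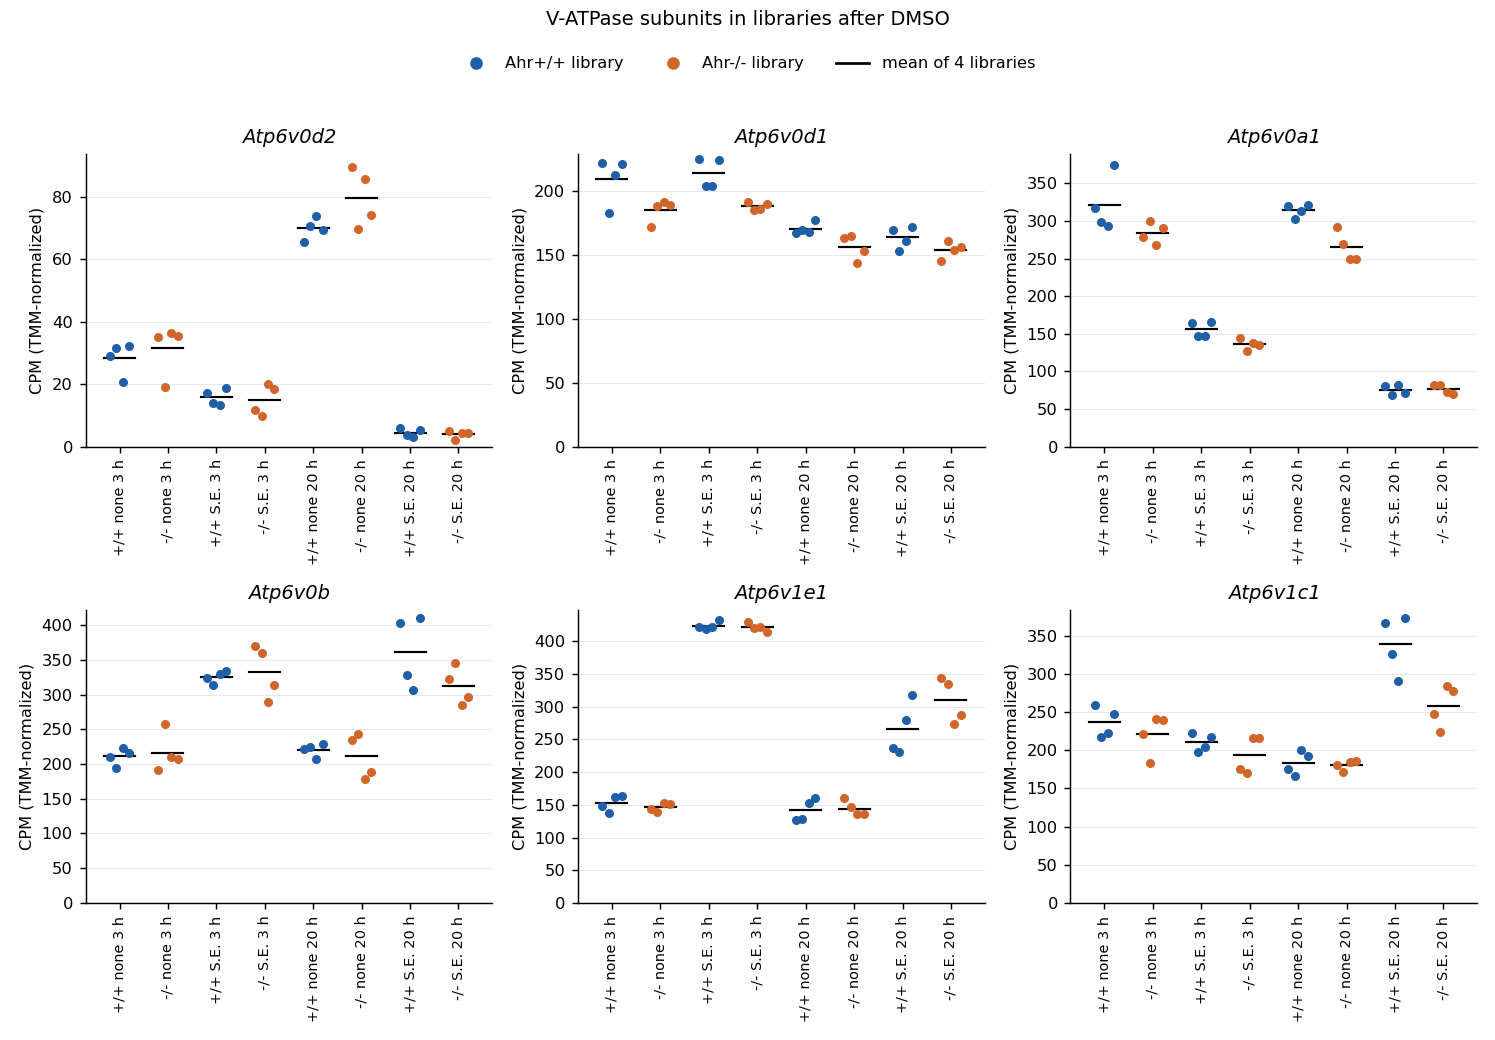
CPM (linear axes from 0) of 6 V-ATPase genes in each DMSO-treated library, in 8 groups by genotype, activation and time; blue points are Ahr+/+, orange points Ahr-/- libraries, and the black line is the mean of 4. Atp6v0d2 is highest in unactivated BMMs at 20 h (65.6 to 89.3 CPM) and lowest in activated BMMs at 20 h (2.21 to 5.80 CPM), whereas Atp6v0d1 stays between 144 and 225 CPM throughout.

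In the V1 sector, 3 of 7 subunits rose at 3 h in each genotype, and none fell in Ahr+/+ BMMs. Of all genes tested, 24.2% rose and 32.3% fell at 3 h in Ahr+/+ BMMs, and 25.5% and 31.8% in Ahr-/- BMMs. Atp6v1e1, the stalk subunit, rose most, from 148, 138, 163 and 164 to 422, 419, 422 and 433 CPM at 3 h in Ahr+/+ BMMs (log2 fold change 1.47 ± 0.08, edgeR adjusted p = 3.52e-22), and stayed higher at 20 h with 238, 231, 280 and 317 against 127, 128, 153 and 160 CPM (0.91 ± 0.08). Changes in Ahr-/- BMMs were 1.52 and 1.10. Atp6v1d (0.52 and 0.33) and Atp6v1h (0.64 and 0.69) rose at 3 h in Ahr+/+ and Ahr-/- BMMs. The regulatory subunit Atp6v1c1 rose at 20 h (0.89 and 0.51) and was not called at 3 h, and the B subunit Atp6v1b2 fell at 20 h (-0.45 and -0.31). Atp6v1b2 also fell at 3 h in Ahr-/- BMMs, a call lost without any 1 of the 4 activated libraries (edgeR adjusted p 0.0129 to 0.0681). The catalytic subunit Atp6v1a was not called in any of the 4 comparisons, with values between -0.17 and 0.07, nor was Atp6v1f.

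A second question was whether the change with activation differed between 20 h and 3 h. In Ahr+/+ BMMs this difference was called for 27 of the 44 genes, 8 more positive and 19 more negative at 20 h, where 26.5% and 21.3% of all genes were so called. It was called for 9 and 17 genes in Ahr-/- BMMs (25.2% and 19.4% of all genes). The most negative were Atp6v0d2 (-3.14 in Ahr+/+ and -3.24 in Ahr-/- BMMs), Ctse (-2.34 and -2.98) and Lipa (-1.87 and -2.06), and the most positive Tfeb (2.64 and 1.73), Neu1 (1.41 and 1.35) and Ctsz (1.13 and 0.83). Comparing activated libraries directly, 26 of the 44 were lower and 8 higher at 20 h than at 3 h in Ahr+/+ BMMs (26.4% and 33.0% of all genes), with Tfeb higher by 2.90 and Lipa lower by 2.01. Of the same genes, 27 were lower and 7 higher in Ahr-/- BMMs (24.3% and 31.7% of all genes).

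Unactivated BMMs also differed between the times. In Ahr+/+ BMMs 2 of 44 rose and 3 fell (3.31% and 2.77% of all genes) and in Ahr-/- BMMs 2 rose and 4 fell (3.52% and 3.46%). With the library number as a block the calls were 15 and 14 instead of 5 and 6, although the labels do not say what a number stands for. The shares of all genes above belong to the fit without the block, and those with it are not given. Atp6v0d2 was higher at 20 h by 1.30 ± 0.25 in Ahr+/+ (edgeR adjusted p = 0.000177) and 1.34 ± 0.25 in Ahr-/- BMMs, so that its fall at 20 h was counted from a higher level. Man2b1 rose from 565, 572, 565 and 606 to 742, 815, 707 and 770 CPM in Ahr+/+ BMMs (0.39, adjusted p = 0.00129, and 0.0102 without unactivated library 2 at 20 h). Npc1 fell from 359, 313, 339 and 345 to 266, 273, 286 and 250 CPM (-0.33, adjusted p = 0.00162, lost without library 1 at 3 h or 4 at 20 h at 0.0105 to 0.0135), and Lamp1 and Atp6v0d1 fell by 0.29 and 0.30. The 6 calls in Ahr-/- BMMs (Atp6v0d2, Ppt1, Npc1, Atp6v0c, Atp6v1b2 and Atp6v0d1) were all lost when the identifier series was added to the model, a term chosen after seeing the data, with adjusted p between 0.0106 and 0.220.

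The study's second factor was the AhR. Without ligand, Ahr-/- and Ahr+/+ BMMs differed in few of these genes except after 20 h with hk S.E. Unactivated at 3 h, 1 of 44 was lower in Ahr-/- BMMs and none higher (0.970% and 0.241% of all genes), and with hk S.E. at 3 h 2 were lower and none higher (1.61% and 1.22% of all genes). Ctsl was the gene common to both. It held 1716, 1565, 1453 and 1541 CPM in unactivated Ahr-/- against 1875, 2250, 2161 and 2131 CPM in Ahr+/+ BMMs (-0.42 ± 0.09, edgeR adjusted p = 0.00231), and 1412, 1168, 1330 and 1352 against 1712, 2029, 1855 and 1879 CPM after hk S.E. (-0.51 ± 0.09, adjusted p = 0.000151). The groups did not overlap. The first of these calls was lost without Ahr+/+ library 2 or 4 or Ahr-/- library 2 or 3 (adjusted p 0.0115 to 0.0196) and with only Ahr-/- libraries 1 and 2 (0.0783). Fitted on the groups compared alone, neither Ctsl call was kept (adjusted p 0.0650 and 0.0116). Gusb was lower after hk S.E. at 3 h, with 460, 388, 411 and 406 against 565, 571, 487 and 589 CPM (-0.41 ± 0.09, adjusted p = 0.00300). With the identifier series in the model its adjusted p was 0.0130, and without Ahr+/+ library 2 or 4 or Ahr-/- library 2 it lay between 0.0144 and 0.0228, and with the groups compared alone it was 0.0238. In unactivated BMMs at 20 h only Ctss was called, higher in Ahr-/- BMMs (4085, 4488, 3839 and 4121 against 3104, 3295, 3272 and 3638 CPM, 0.31 ± 0.07, adjusted p = 0.00638), where 0.220% of all genes were higher and 0.482% lower. The series term ended this call (adjusted p = 0.154), as did the fit without the filter on low counts (0.0443), that on the groups compared alone (0.121) and leaving out Ahr+/+ library 1, 2 or 3 or Ahr-/- library 2 or 4 (0.0218 to 0.0532).

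After 20 h with hk S.E., 10 of the 44 were lower and none higher in Ahr-/- BMMs, where 7.39% of all genes were lower and 5.06% higher. They were the cathepsins Ctsb, Ctsd, Ctsk and Ctsl, the hydrolases Gla and Naglu, Psap, Npc2, Cd63 and the V1 subunit Atp6v1c1. Psap (chr10:60277627-60302597, plus strand) stood at 3528, 3345, 3890 and 3617 CPM in Ahr-/- against 7032, 6332, 5605 and 6636 CPM in Ahr+/+ BMMs (-0.83 ± 0.10, edgeR adjusted p = 1.97e-08). Npc2 (chr12:84754562-84773152, minus strand) held 1087, 989, 1145 and 1033 against 1793, 1758, 1652 and 2015 CPM (-0.76 ± 0.07, adjusted p = 6.61e-12). Ctsk, at few reads, held 2.50, 1.99, 2.36 and 2.47 against 4.85, 4.71, 4.02 and 5.99 CPM (-1.07 ± 0.21, adjusted p = 0.000167). Ctsb was lower by 0.52, Gla by 0.51, Ctsd and Naglu by 0.47, Ctsl by 0.45, Atp6v1c1 by 0.39 and Cd63 by 0.35 on the log2 scale.

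These 10 calls cannot be told apart from the identifier series, which separated the same libraries. The series of these libraries occurred together only within unactivated groups, so a series term carries over a difference estimated there. It cannot separate series from genotype in activated BMMs. With that term, 4 remained, Npc2 (-0.67), Psap (-0.86), Ctsb (-0.54) and Ctsl (-0.50), and the other 6 had adjusted p between 0.0193 and 0.187. These 4 and Ctsk also passed with only Ahr-/- libraries 1 and 2 and with only libraries 3 and 4, while Ctsd, Cd63 and Naglu were lost in the first of these fits (adjusted p 0.0116 to 0.0562) and Gla and Atp6v1c1 in the second (0.0116 and 0.0138). Single libraries decided 3 of the other calls: without activated Ahr+/+ library 1 or 4 or Ahr-/- library 1 or 2, Atp6v1c1 had an adjusted p between 0.0154 and 0.0312. Gla was lost without those 4 or Ahr+/+ library 2 (0.0180 to 0.0539), and Cd63 without Ahr+/+ library 4 or Ahr-/- library 3 or 4 (0.0144 to 0.0315, edgeR). Fitted on the groups compared alone, 3 calls were left, Ctsk, Npc2 and Psap.

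**Figure D3:**
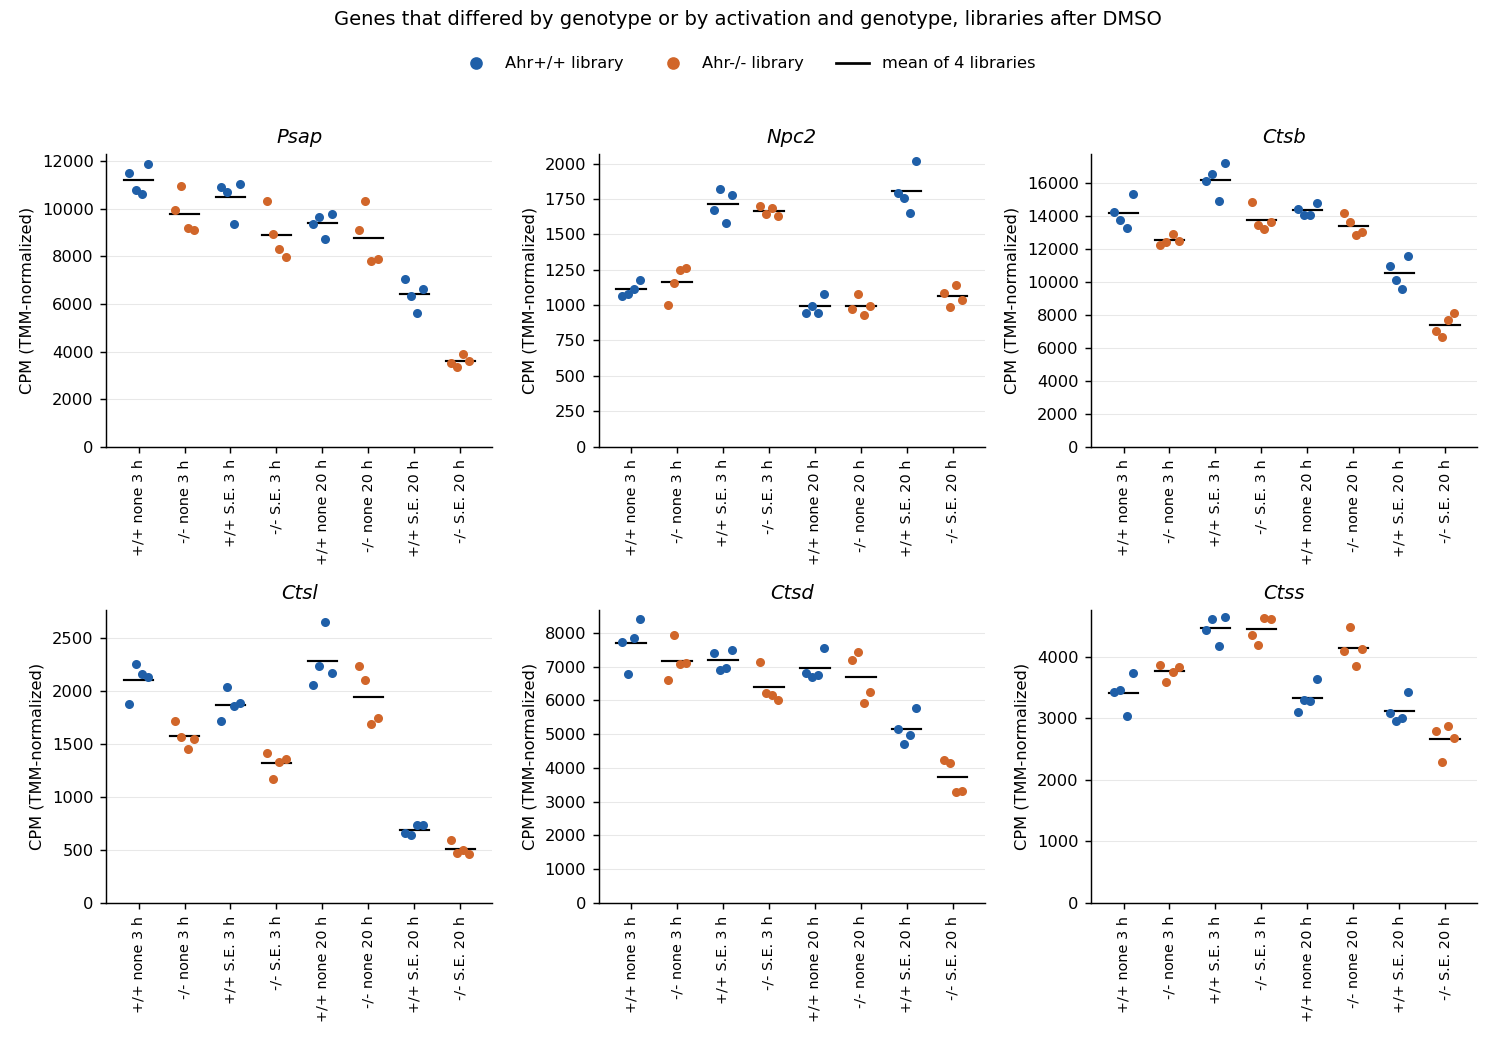
CPM (linear axes from 0) of Psap, Npc2, Ctsb, Ctsl, Ctsd and Ctss in each DMSO-treated library, in 8 groups by genotype, activation and time; blue points are Ahr+/+, orange points Ahr-/- libraries, and the black line is the mean of 4. After 20 h with hk S.E. Npc2 lies between 989 and 1145 CPM in Ahr-/- and between 1652 and 2015 CPM in Ahr+/+ BMMs, while the unactivated groups at 20 h overlap.

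The change with activation itself was then compared between genotypes. At 3 h none of the 44 differed (0.0138% of all genes did), and none was called by DESeq2 or limma. At an unadjusted p below 0.05 there was 1 gene of the 44, against 867 of all 14537 genes tested. With the library number as a block 1 was called, Ctsc (-0.54). At 20 h 5 genes changed more negatively in Ahr-/- BMMs and none more positively (2.33% and 2.08% of all genes). Npc2 rose by 0.87 in Ahr+/+ and by 0.10, not called, in Ahr-/- BMMs, a difference of -0.77 ± 0.10 (edgeR adjusted p = 7.31e-07). For Psap the difference was -0.74 ± 0.14 (adjusted p = 0.000418), for Ctss -0.54, for Ctsb -0.42 and for Ctsh -0.57 (adjusted p = 0.00794). Ctsh in Ahr-/- BMMs went from 372, 405, 276 and 291 to 206, 225, 168 and 174 CPM, and in Ahr+/+ BMMs from 285, 288, 293 and 291 to 239, 256, 239 and 253 CPM. With the series term Npc2, Psap and Ctss stayed past the threshold, and Ctsb and Ctsh did not (0.0141 and 0.0214). With only Ahr-/- libraries 3 and 4, Psap (-0.51, adjusted p = 0.0308), Ctss (0.0142) and Ctsb (0.158) were lost, and of the 5 only Npc2 was called in both of these fits and with only libraries 1 and 2. Leaving out 1 library ended the call of Ctsb for 8 of the 16 libraries (adjusted p 0.0107 to 0.0213) and that of Ctsh for 11 (0.0110 to 0.0388). Fitted on the groups compared alone, Npc2 and Psap were left.

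The last question was whether the AhR ligands altered these genes in activated BMMs. None of the 44 was called for BaP or I3C against DMSO in either genotype at 3 h or 20 h, for BaP against I3C in Ahr+/+ BMMs, or for the difference of a ligand's change between genotypes, which makes 14 comparisons. Few genes were called at all in this fit, which took 1 spread per gene from all 64 libraries of both genotypes. In Ahr+/+ BMMs BaP changed 0.0482% of all genes tested at 3 h and 0.234% at 20 h, I3C changed 0.131% and 0.509%, and BaP differed from I3C, at doses that were not equal, in 0.110% and 0.282%. In Ahr-/- BMMs the shares were 0.0275% and 0.0138% for BaP and 0.0206% and 0.206% for I3C. The change with BaP at 3 h differed between genotypes for 0.0138% of all genes, and the other 3 such differences were called for 0%. The paper, with DESeq2 and the same threshold, reported more AhR-dependent DEGs for each ligand at each time. Its counts hold genes called in either genotype but not in both, whereas the shares here belong to single comparisons. The cause of the difference was not tested. Here, at an unadjusted p below 0.05, between 0 and 5 of the 44 passed, where between 241 and 1510 of all 14537 genes tested did. The 5 of 44 and the 1510 of all genes both belonged to BaP in Ahr+/+ BMMs at 20 h. DESeq2 and limma, run here, called none of the 44. With the library number as a block 1 gene was called in 1 of the 14, Ctsl with BaP in Ahr+/+ BMMs at 20 h (adjusted p = 0.00106). The median size of the log2 fold change was 0.08 for BaP and 0.04 for I3C in Ahr+/+ BMMs at 20 h, against 0.44 for hk S.E. at that time.

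Ctsl came closest to the threshold. In Ahr+/+ BMMs activated for 20 h it held 656, 636, 735 and 733 CPM with DMSO and 801, 898, 907 and 889 CPM with BaP, which did not overlap (log2 fold change 0.34 ± 0.09, 95% interval 0.16 to 0.52, edgeR adjusted p = 0.0487). With I3C, given at 10 µM where BaP was given at 1 µM, it held 787, 813, 918 and 785 CPM (0.26, adjusted p = 0.258). Ahr-/- libraries with BaP held 532, 509, 481 and 480 CPM and those with DMSO 588, 470, 499 and 458 CPM, which overlapped (-0.01). The largest values were those of Atp6v0d2 with BaP in Ahr+/+ BMMs at 20 h (0.49 ± 0.27) and Tfeb with BaP in Ahr-/- BMMs at 3 h (0.47 ± 0.24). The largest with I3C at 3 h were those of Atp6v0c in Ahr+/+ BMMs (0.26 ± 0.08, adjusted p = 0.164) and Neu1 in Ahr-/- BMMs (0.24 ± 0.09). Leaving aside Ctse, the 95% intervals of all members lay between -0.77 and 0.81 for BaP at 3 h and between -0.51 and 1.04 at 20 h in Ahr+/+ BMMs, and between -0.74 and 0.64 and between -0.54 and 0.84 for I3C, so changes beyond these limits were not seen while smaller ones could have been missed. These Ahr+/+ intervals also carry the spread between Ahr-/- libraries, because both genotypes shared the estimate.

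**Figure D4:**
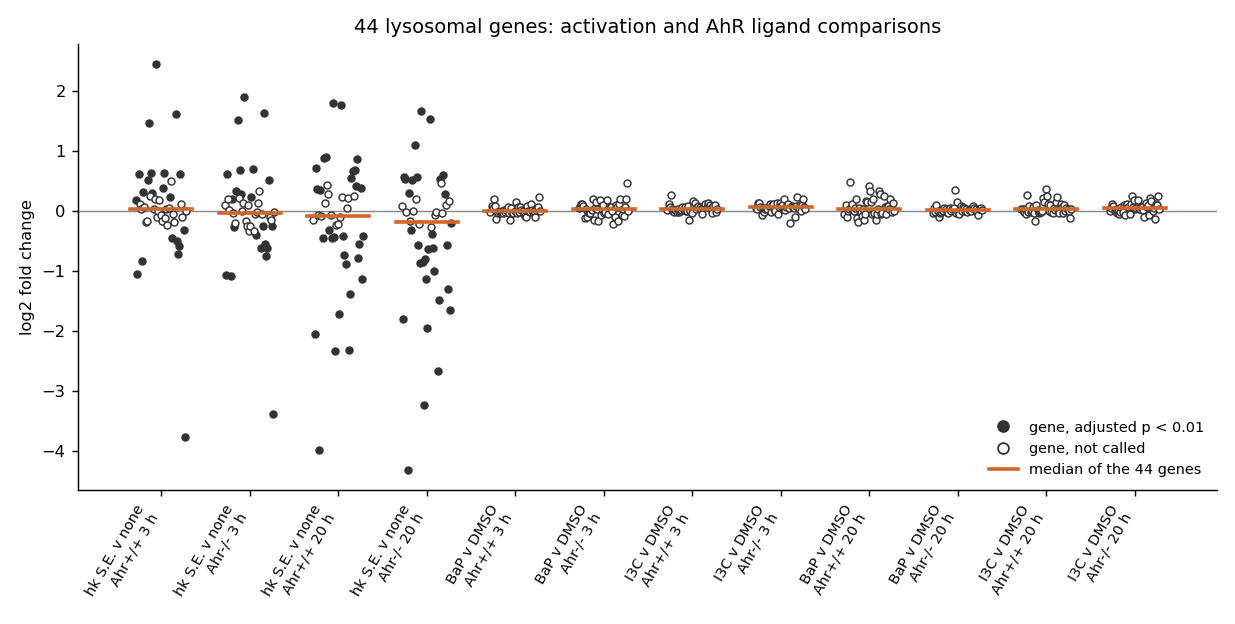
Log2 fold changes of the 44 genes (dark filled points are called at adjusted p below 0.01, open points are not) in the 4 comparisons of hk S.E. with unactivated BMMs and the 8 comparisons of BaP or I3C with DMSO in activated BMMs; the orange line is the median of the 44. With activation the points spread from -4.31 to 2.45, and with ligands they lie between -0.22 and 0.49.

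Other genes of the lysosomal pathway, counted by lists outside the 44, changed in both directions with hk S.E. in Ahr+/+ BMMs. Their counts stand beside 24.2% of all genes that rose and 32.3% that fell at 3 h, and 29.9% and 28.7% at 20 h. Of 31 further hydrolases 5 rose and 11 fell at 3 h, and 8 rose and 14 fell at 20 h, so the share that fell was 35.5% at 3 h, near that of all genes, and 45.2% at 20 h. Sgsh, a heparan sulfatase, fell from between 60.6 and 75.0 to between 8.15 and 10.7 CPM at 3 h (-2.87), and the tartrate-resistant phosphatase Acp5 rose by 2.56. Of 28 further membrane proteins and transporters 10 rose and 10 fell at 3 h and 12 and 12 at 20 h. The peptide transporter Slc15a3 rose by 2.35 and 2.96, and the sorting receptor Sort1 fell by 3.39 at 20 h. Among 5 further V-ATPase genes tested of 12, 2 rose at 3 h, and 3 rose and 1 fell at 20 h.

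Of 19 genes that act with or upstream of the MiT/TFE factors, 4 rose and 8 fell at 3 h, and 2 rose and 6 fell at 20 h. Tfec, the family member found in macrophages, rose from between 14.0 and 17.6 to between 111 and 123 CPM at 3 h (2.96 ± 0.15, edgeR adjusted p = 6.01e-25), and Flcn, which controls the Rag GTPases, fell by 2.57. Of 20 autophagy genes 7 rose and 10 fell at 3 h, and 9 rose and 4 fell at 20 h. The kinase gene Ulk1 fell by 2.06 at 3 h, and the receptor Sqstm1 rose by 3.60 at 20 h, from between 425 and 464 to between 4679 and 6083 CPM. Among cystatins, the inhibitors of cysteine cathepsins, 5 of 8 were tested, of which 4 rose at 3 h, and 3 rose and 1 fell at 20 h. Cst7 (cystatin F), which inhibits cathepsin C, went from between 1.66 and 3.08 to between 32.5 and 41.1 CPM at 3 h (3.78) and rose by 4.62 at 20 h, and the abundant Cst3 fell by 1.29 at 20 h.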

How the data were processed

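RNA from 64 BMM libraries was sequenced in 126-base reads on 1 flow cell. The authors demultiplexed with bcl2fastq 2.19.0.316, aligned to mm10 with HISAT2 2.1.0 and counted reads per gene with HTSeq 0.9.1 on GENCODE M22, by the stated methods and the submitters' processing notes. The deposited files hold raw counts per gene and a log2 table of variance-stabilized values, which the authors made with DESeq2. The count tables were stranded, and reads shared by genes or copies can be left out. The 5 rows that name no gene were left out of library sizes.

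Counts were analysed here with edgeR 4.0.16 in R 4.3.3: TMM factors, filterByExpr with a minimum count of 10, 1 mean per group over all 64 libraries, quasi-likelihood tests with Benjamini-Hochberg adjustment over the 14537 genes tested, and a call at adjusted p below 0.01. The model had 48 residual and 5.06 prior degrees of freedom, and 95% intervals used 53.06. DESeq2 1.42.0 and limma 3.58.1 on the deposited log2 values were alternatives, as were other size factors, no filter, a replicate block, only the groups compared, 1 library left out and adjusted p below 0.05. The identifier series as a covariate and fits with only Ahr-/- libraries 1 and 2 or 3 and 4 were chosen after seeing the data. The tests were tested on simulated data. No pair of libraries agreed within sampling noise. Gene positions are from GENCODE M21 (mm10) and promoters from RefSeq (GRCm38.p6).

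The 44 genes, the pathway lists and the marker lists were chosen with earlier results of these data known. Values of each library are given for the called genes with the largest changes (6 for each activation comparison in Ahr+/+ BMMs, 3 for each other comparison), for Tfeb, Tfe3 and Mitf and for the pairs Ctsk and Ctss, Ctsl and Ctsb, and Atp6v0d1 and Atp6v0d2, whatever their values. Pathway genes named are at most the 3 largest calls of a list.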

Additional observations from a re-analysis of the deposited data

Results flagged for a closer look

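The change with hk S.E. differed between 20 h and 3 h in Ahr+/+ BMMs for 27 of the 44 genes by the test of that difference (edgeR, adjusted p below 0.01). It was more negative at 20 h for Atp6v0d2 (-3.14), Ctse (-2.34), Lipa (-1.87), Ctsl (-1.55), Man2b1 (-1.34), Atp6v0a1 (-1.01), Mitf (-0.96), Hexa (-0.93), Ppt1 (-0.89), Ctsc (-0.65), Ctsb (-0.64), Cd63 (-0.60), Atp6v1e1 (-0.56), Gusb (-0.50), Ctss (-0.49), Psap (-0.46), Glb1 (-0.45), Tpp1 (-0.42) and Atp6ap1 (-0.34). It was more positive for Tfe3 (0.70), Mcoln1 (0.73), Naglu (0.76), Npc1 (1.00), Atp6v1c1 (1.06), Ctsz (1.13), Neu1 (1.41) and Tfeb (2.64). All values are differences of log2 fold changes. Of all genes tested, 26.5% were called more positive and 21.3% more negative at 20 h in Ahr+/+ BMMs. For Psap and Mitf the call was lost without 1 of 6 and 1 of 3 libraries (adjusted p 0.0100 to 0.0202 and 0.0104 to 0.0124).

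Between genotypes, the change with hk S.E. at 20 h was more negative in Ahr-/- BMMs for Npc2 (-0.77), Psap (-0.74), Ctsh (-0.57), Ctss (-0.54) and Ctsb (-0.42). All unactivated and activated Ahr-/- libraries at 20 h belonged to 1 identifier series and all activated Ahr+/+ libraries to another, and the part of the series in these differences was not tested beyond the fit that holds it as a covariate.

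A library lay far from the other 3 of its group in 12 of 352 groups of values examined for 22 genes, where chance alone gives about 5% of groups. In unactivated Ahr-/- BMMs at 3 h, library 1 held 172 CPM of Atp6v0d1 (the others 189 to 191), and library 2 held 19.1 CPM of Atp6v0d2 (34.9 to 36.3) and 326 CPM of Ctsh (251 to 262). In unactivated Ahr+/+ BMMs, Ctsc stood at 353 CPM in library 2 at 3 h (301 to 307) and Gusb at 691 CPM in library 4 at 20 h (609 to 619). The activated Ahr+/+ library 3 with DMSO at 3 h held 217 CPM of Npc1 (229 to 231). With BaP at 3 h, Ahr+/+ library 3 was low for Ctss (3864 CPM, the others 4503 to 4593), Gusb (476, 581 to 600) and Psap (9396, 11007 to 11184). At 20 h, Ctsl stood at 801 CPM in Ahr+/+ library 1 with BaP (889 to 907), Tfeb at 15.1 CPM in Ahr+/+ library 3 with I3C (17.6 to 17.8) and Ctsk at 2.14 CPM in Ahr-/- library 2 with BaP (2.73 to 2.75).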

How the results depend on the processing

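No call reversed: 255 called values were refitted 4551 times with 0 of opposite sign. Counts of the 44 genes called with hk S.E. at either time, and those of activated BMMs between times, stayed within 1.5 times under every alternative. The counts that moved further were these. For Ahr-/- against Ahr+/+ BMMs, the count unactivated at 3 h (1) was 0 with only Ahr-/- libraries 1 and 2, 0 with only the groups compared, and 0 to 1 with 1 library left out. With hk S.E. at 3 h (2) it was 4 by DESeq2, 8 at adjusted p below 0.05, 1 with the series covariate, 5 with libraries 1 and 2, 0 with only the groups compared and 1 to 2 leaving 1 library out. Unactivated at 20 h (1) it was 2 at adjusted p below 0.05, 0 with the covariate, 0 without the filter, 2 with libraries 1 and 2, 8 with libraries 3 and 4, 0 with only the groups compared and 0 to 1 leaving 1 out. With hk S.E. at 20 h (10) it was 4 with the covariate, 21 with libraries 3 and 4 and 3 with only the groups compared. The difference in activation between genotypes at 20 h (5) was 8 at adjusted p below 0.05, 3 with the covariate, 3 without the filter, 3 with libraries 3 and 4, 2 with only the groups compared and 3 to 5 leaving 1 out. Unactivated 20 h against 3 h in Ahr+/+ BMMs (5) gave 11 at adjusted p below 0.05 and 9 with only the groups compared. In Ahr-/- BMMs (6) it gave 11, 0 with the covariate, 3 without the filter, 10 with libraries 3 and 4, 1 with only the groups compared and 3 to 8 leaving 1 out. For BaP in Ahr+/+ BMMs at 20 h (0) 1 was called at adjusted p below 0.05. The shares of all genes called under each alternative are not given beside these counts. Whether the counts moved with those shares was not tested, nor was the cause of the shifts. The covariate and the fits with part of the Ahr-/- libraries were chosen after seeing the data.

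Library numbers are shared across groups, but nothing says what a number stands for. The distances of libraries with 1 number from their group means correlated above 0.1 in 54 of 112 pairs in Ahr+/+ (-0.0937 to 0.319) and in 104 of 112 in Ahr-/- BMMs (-0.402 to 0.645). For hk S.E. in Ahr-/- BMMs at 20 h all 4 did. With the replicate block, calls went from 6 to 14 and from 5 to 15 for unactivated 20 h against 3 h in Ahr-/- and Ahr+/+ BMMs, from 5 to 9 and from 0 to 1 for the difference in activation between genotypes at 20 h and 3 h, and from 0 to 1 (Ctsl) for BaP in Ahr+/+ BMMs at 20 h. The shares of all genes called with the block are not given beside these counts. No paired analysis was possible between genotypes because they share no animal. Depth limited Ctse and Ctsk, which were counted at a few CPM or less.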

Other observations

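In Ahr-/- BMMs at 20 h with hk S.E., where 28.3% of all genes rose and 26.0% fell, 8 of 31 further hydrolases rose and 13 fell, 8 of 28 membrane proteins and transporters rose and 13 fell, and 7 of 20 autophagy genes rose and 4 fell. For the change with activation at 20 h, the difference between genotypes was called for 2 of the 31 hydrolases, both more negative in Ahr-/- BMMs, and for 4 of the 28 membrane proteins, 3 more negative and 1 more positive. Over all genes 2.33% were called more negative and 2.08% more positive, and whether the lists differ between genotypes was not tested.

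Of the other cell types checked by their markers, the highest dendritic cell marker reached 1.23 CPM, the highest B cell marker (Cd79b) 5.96 CPM and the highest fibroblast marker (Pdgfrb) 28.8 CPM in any library, with the other 3 B cell markers below 1 CPM.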
